A study of Rattus norvegicus with 8 samples.

Results

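The 10 genes described here encode proteins that coat, build or empty cytosolic lipid droplets. They are Plin2, Plin3, Plin4, Fitm2, Bscl2, Hilpda, Pnpla2, Lipe, Mgll and Abhd5, and they were found by their symbols among the 32258 features of the deposited count table. All 10 had enough reads to be tested, along with 12407 genes in all. RNA of H9C2 cells, a rat line labelled as cardiomyoblasts, was sequenced 2 days after transduction in 4 groups of 2 libraries. The groups received YFP-tagged PPARalpha with a serine changed to aspartate (S280D, labelled phospho-mimicking), YFP-tagged PPARalpha with the same serine changed to alanine (S280A, labelled phospho-resistant), YFP-tagged wild-type PPARalpha (WT), or YFP alone (YFP). Every group thus carried the pDC316 vector and YFP, all cells were kept in serum-containing medium, and the labels name no PPARalpha ligand. The delivered receptors added to the cells' own Ppara, and the design implies the 6 pairwise comparisons of the 4 constructs. The labels do not say whether the 2 libraries of a construct stem from different cultures, and the spread behind each p-value may therefore be technical.

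A lipid droplet is a core of triacylglycerol and sterol ester under a phospholipid monolayer. Proteins of the perilipin family coat this monolayer, and seipin and the FIT proteins act at the endoplasmic reticulum where droplets form. Stored triacylglycerol is cut stepwise by adipose triglyceride lipase, hormone-sensitive lipase and monoacylglycerol lipase, with the protein encoded by Abhd5 activating the first of them. In heart muscle the fatty acids set free in this way are fuel, and they or their derivatives also serve as ligands of PPARalpha, a nuclear receptor that acts on fatty acid oxidation genes. Plin2 is among the perilipin genes widely known as PPAR targets.

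The libraries held 39526013 and 21050137 exon reads in S280D, 14693406 and 14018785 in S280A, 19229424 and 16698202 in WT, against 17252523 and 19070170 in YFP. Levels are given as CPM, exon reads scaled to library size with factors from the trimmed mean of M-values. Ppara, the check of the constructs, had 17911 and 17693 CPM in S280D, 17400 and 13736 in S280A, 12382 and 24134 in WT, against 74.4 and 59.5 in YFP. The 2 WT libraries were thus the lowest and the highest of the 6 with a PPARalpha construct. The column headers name 2 sequencing lanes, and both WT libraries came from lane 2 while both YFP libraries came from lane 1, so lane and construct cannot be told apart in that comparison. Libraries also differed in how log2 CPM, taken relative to each gene's mean over the 8 libraries, ran with exon length across genes. The rank correlation was 0.238 and 0.211 in S280D, -0.14 and -0.232 in S280A, 0.129 and 0.158 in WT, against -0.247 and -0.0648 in YFP. Its sign is thus relative to the other libraries. Its part in the results was not tested beyond a length correction. Corrected values were read only for the lipid droplet genes listed at the start, and are given where they change a call. For the markers and the genes of the other lists below no corrected value was read, and their calls were not tested in this way. Of 11 cardiomyoblast and muscle markers 9 were tested, with Gata4 between 6.01 and 10.7 CPM and Des, which encodes the muscle filament protein desmin, between 0.45 and 0.894 CPM. Their summed level was 371.2 to 372.4 CPM in S280D, 367.2 to 420.8 in S280A, 265 to 307.8 in WT and 360.6 to 400.2 in YFP, lowest in WT as Mgll was. Tnnt2 made up most of this sum, with 32994 of 58469 reads, and had 129.1 and 165.2 CPM in WT against 172.4 and 265.3 in YFP. The low sum in WT thus largely reflects this gene and not the list. The markers did not move together: Tnnt2 was lower in WT than in YFP (-0.57, edgeR adjusted p = 0.0488) and Mef2c higher (0.58, 0.0492). Of 6 fibroblast and mesenchymal markers 5 were tested, and their sum was 34131 to 37124 CPM in S280D, 43768 to 51072 in S280A, 31103 to 35623 in WT and 44758 to 50005 in YFP. Col1a1 made up most of this sum, with 4174749 of 6447985 reads. Thy1 had 123.9 and 157.8 CPM in S280D, 188.4 and 213.7 in S280A, 137.1 and 154.2 in WT, against 150.1 and 116.9 in YFP. It overlapped between S280D, WT and YFP, and both S280A libraries lay above all others. The part of either marker list in the results was not tested, and in bulk RNA fewer cells of a type and less RNA per cell cannot be told apart. None of the 6 adipocyte, 4 macrophage or 2 endothelial markers in the table was tested, and they had 43, 67 and 8 reads in all 8 libraries together. The summed adipocyte markers reached 0.314 to 0.319 CPM in S280D, 0.14 to 0.242 in S280A, 0.119 to 0.25 in WT and 0.293 to 0.307 in YFP.

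Promoters were read from RefSeq on the GRCr8 assembly, as 250 bases before to 50 bases after each annotated start, and 9 of the 10 genes had an entry. Plin2 had 2 promoters, Plin4 had 5 and the others had 1 each, while the shares below count single promoters. They were searched on both strands for the DR1 type of PPAR response element, a direct repeat of AGGTCA with 1 free base between the copies, with up to 2 mismatches, for AGGTCA alone (which lies within DR1), for the hypoxia core ACGTG and for the E-box CACGTG, which contains ACGTG. Within these bases none of the 9 genes held the PPAR element, which 3.78% of all 33365 promoters of this length did. Sequence farther from the start was not searched. AGGTCA stood in the promoters of Bscl2 and Abhd5 (16.2% of all promoters), and ACGTG in those of Plin2, Fitm2, Bscl2, Hilpda and Mgll (19.3% of all). The E-box, held by 6.43% of all promoters, was found at Plin2, beginning 67 bases before the start, and at Mgll, beginning 74 bases before it. At Plin2 the matches lay in 1 of its 2 promoters. The windows around both are shown because these genes, a coat protein with the smallest range of levels and a lipase with the lowest adjusted p-value of the 10 genes, share this hexamer at a like distance. Capitals mark the E-box, Plin2 lies at chr5:106229055-106229110 on the minus strand and Mgll at chr4:122749337-122749392 on the plus strand of GRCr8.
Plin2: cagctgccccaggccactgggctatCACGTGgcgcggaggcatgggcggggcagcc
Mgll: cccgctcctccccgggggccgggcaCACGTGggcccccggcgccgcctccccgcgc
A match of letters is a description and says nothing of binding in these cells.

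The 10 genes differed widely in level. Per kilobase of exon, Plin3 averaged 56.4 CPM over the 8 libraries and Plin2 48.8, and their ranges overlapped (44.7 to 77.5 for Plin3 and 44 to 54.5 for Plin2). Below a gap came Bscl2 at 17.7, Mgll at 17.5, Hilpda at 14.1, Pnpla2 at 13.5 and Abhd5 at 10.2 CPM per kilobase, and each of these overlapped its neighbours in range. The place of Pnpla2 is uncertain, since nearly all its reads also match LOC100911615, and the sum of both came to 22.7 CPM per kilobase of Pnpla2 exon. Fitm2 averaged 2.95 CPM per kilobase, below the lowest library of Abhd5. Plin4 at 0.371 and Lipe at 0.31 CPM per kilobase were lowest, did not differ beyond their ranges, and rested on 256 and 187 exon reads in all. The level of Hilpda rests on a gene model of only 255 bases in 1 exon, with 588 reads. Between libraries, the highest level of Plin2 was 1.24 times the lowest, of Plin3 1.73 times, of Abhd5 1.7 times and of Mgll 2.45 times.

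**Figure D1:**
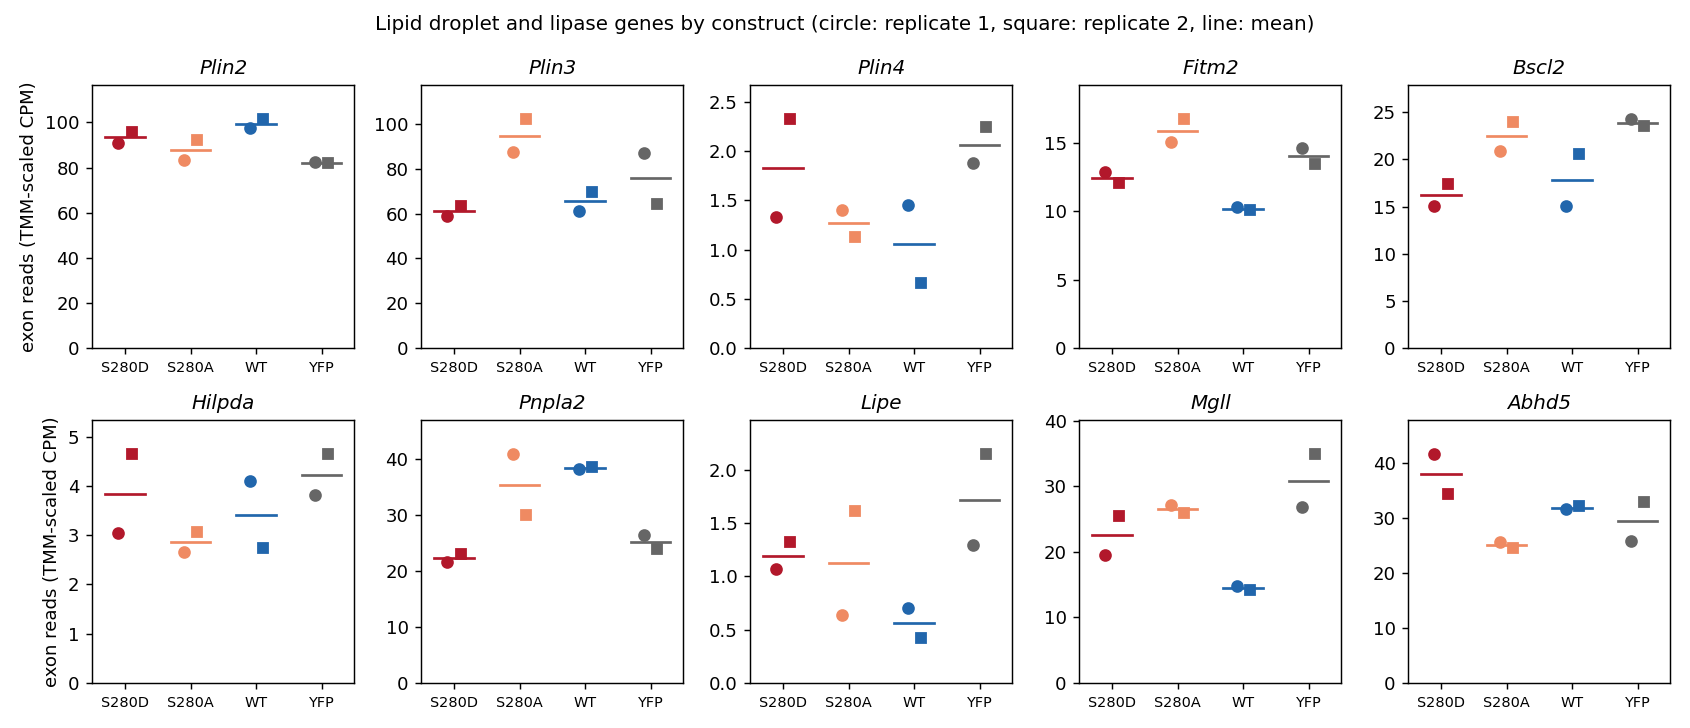
TMM-scaled CPM of each of the 10 genes (y axis, linear from 0) in S280D, S280A, WT and YFP libraries, with circles for replicate 1, squares for replicate 2 and a line at the mean of 2 libraries. Mgll is lowest in both WT libraries (14.8 and 14.2 CPM), and Plin3 is highest in both S280A libraries (87.5 and 102 CPM).

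At most 3 of the 10 genes passed the test in any single comparison (edgeR quasi-likelihood, Benjamini-Hochberg adjusted p under 0.05 over 12407 genes). Plin3, Fitm2, Bscl2, Pnpla2, Mgll and Abhd5 each passed in at least 1 comparison. In WT against YFP, 1 gene was higher (Pnpla2) and 1 lower (Mgll), where 12.2% of all tested genes were called higher and 7.45% lower. In S280D against YFP, none was higher and 1 was lower (Bscl2), where 17.1% of all tested genes were called higher and 13.7% lower. In S280A against YFP no member was called, where 0.0403% of all tested genes were higher and 0% lower. In S280A against WT, 3 were higher (Plin3, Fitm2 and Mgll) and none lower, where 10.1% of all tested genes were higher and 15.9% lower. In S280D against S280A, 1 was higher (Abhd5) and 2 were lower (Plin3 and Pnpla2), where 21.3% of all tested genes were higher and 18% lower. In S280D against WT no member was called, where 0% of all tested genes were higher and 0.0403% lower. At an unadjusted p under 0.05 the counts of members were 1 for S280A against YFP (Pnpla2) and 2 for S280D against WT (Pnpla2 and Mgll), where 11.6% and 4.88% of all tested genes had such a p. DESeq2 called no member and 100 of all genes in S280A against YFP, and 1 member (Pnpla2, adjusted p = 0.0133) and 38 of all genes in S280D against WT. The members' shares of edgeR calls lay near or below those of all genes, apart from the 3 higher in S280A against WT. That is a count of 10 genes with no test of its own. At an unadjusted edgeR p under 0.05, 6 members stood in WT against YFP (35.7% of all genes) and 3 in S280D against YFP (43.2%). There were 3 in S280A against WT (41%) and 4 in S280D against S280A (49.5%). At that threshold the members' share lay above that of all genes in WT against YFP and in S280D against WT. The median log2 fold change of the members was -0.36 in WT against YFP, -0.19 in S280D against YFP, -0.16 in S280A against YFP, 0.29 in S280A against WT, 0.20 in S280D against WT and -0.076 in S280D against S280A. Medians over all genes lay between -0.022 and 0.013. Comparisons with a group in common share its libraries and are not independent of each other. In WT against YFP the libraries of the 2 groups did not overlap at 7 of the 10 genes (64.3% of all tested genes). This count was 7 in S280A against YFP (37.8%) and 7 in S280D against YFP (69.7%). It was 6 each in S280A against WT (69.8%), S280D against WT (40.5%) and S280D against S280A (74.2%).

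**Figure D2:**
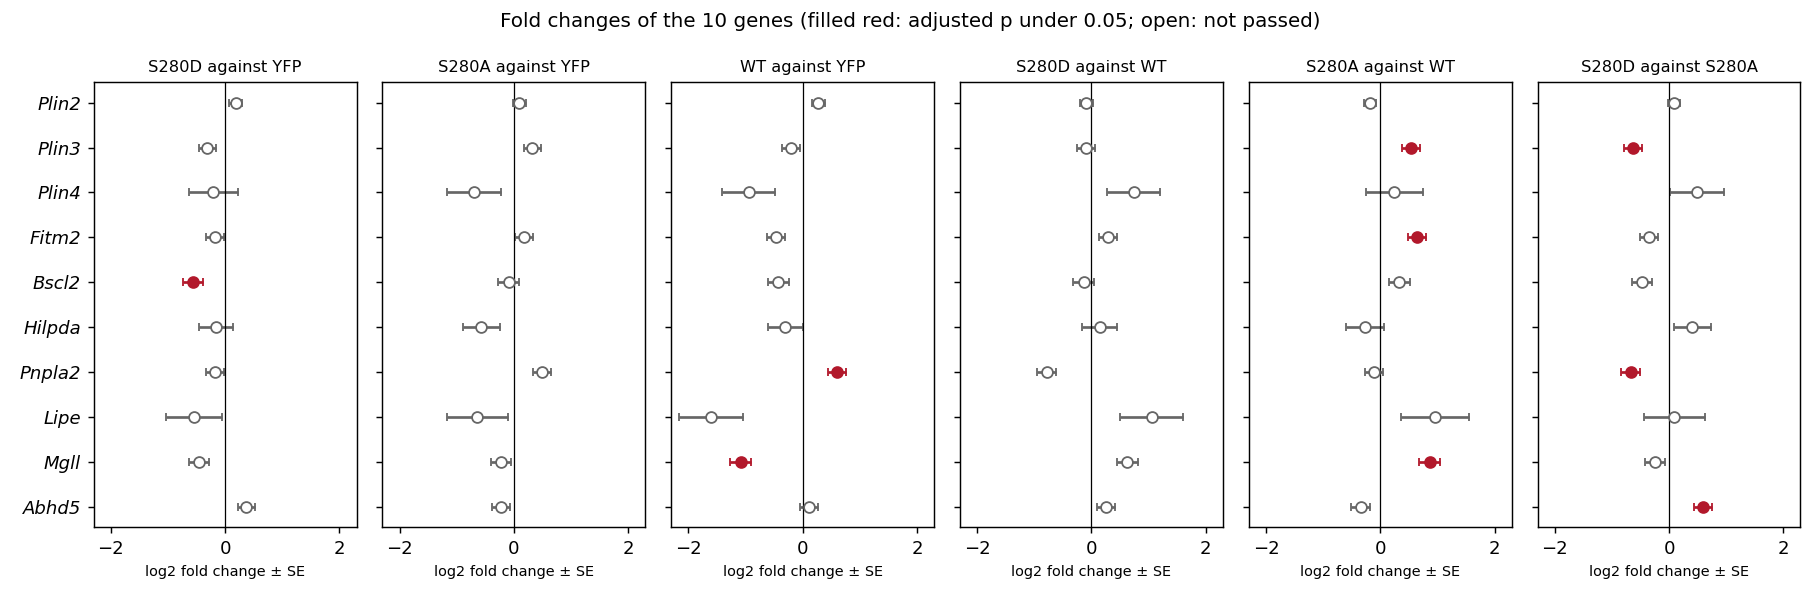
Log2 fold changes (x axis, bars ± SE) of the 10 genes in the 6 comparisons, 2 libraries a group, with filled red points where the adjusted p was under 0.05. The called value farthest from 0 is Mgll in WT against YFP (-1.09), and the widest bars belong to Lipe and Plin4.

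Plin2, whose product is the coat protein of droplets in most cells that are not adipocytes, had 90.9 and 95.9 CPM in S280D, 83.5 and 92.2 in S280A, 97.6 and 101.4 in WT, against 82.6 and 81.8 in YFP. All 6 libraries with a PPARalpha construct lay above both YFP libraries, by a small margin at the lowest S280A library. The largest difference was that of WT against YFP, at 0.28 ± 0.11 (log2, SE), with a 95% interval of 0.029 to 0.52 and an edgeR adjusted p of 0.103. Plin2 did not pass the test in S280D against YFP (0.18 ± 0.11, adjusted p = 0.230) or in S280A against YFP (0.095 ± 0.11, adjusted p = 0.766). Between the mutants the difference was 0.089, with an interval of -0.16 to 0.33. As a measure of what these libraries show for another PPAR target, Angptl4, which encodes a secreted inhibitor of lipoprotein lipase, had 19 and 18.3 CPM in S280D against 3.34 and 1.99 CPM in YFP (log2 2.81 ± 0.28, edgeR adjusted p = 0.000702). It was higher in WT than in YFP by 1.70 ± 0.29 (0.00536), and S280A against YFP was 1.26 ± 0.30 (0.238). The 3 genes whose log2 CPM ran most like that of Plin2 over the 8 libraries, out of 8536 with a symbol and a mean of at least 5 CPM, were Edn1 (Pearson r = 0.962), Isg20 (0.957) and Btf3l4 (0.928), in libraries that share depth, lane and construct.

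Plin3 encodes the perilipin that moves between the cytosol and young droplets. It had 58.8 and 63.4 CPM in S280D, 87.5 and 102 in S280A, 61.1 and 69.8 in WT, against 86.8 and 64.4 in YFP. Both S280A libraries stood above all others, the lower one barely above the higher YFP library, and the YFP libraries spanned most of the distance between S280A and the rest. Plin3 was lower in S280D than in S280A (-0.63 ± 0.16, edgeR adjusted p = 0.0099) and higher in S280A than in WT (0.53 ± 0.16, adjusted p = 0.0305). No comparison with YFP passed, with S280A against YFP at 0.33 ± 0.16 (adjusted p = 0.448). Within lanes the log2 difference of S280D and S280A was -0.79 in lane 1 and -0.47 in lane 2, with 1 library each, and that of S280A and WT was 0.42 in lane 2, the only lane with both. The call of S280D against S280A was lost without S280D replicate 1 (-0.56, edgeR adjusted p = 0.0952) or S280A replicate 2 (-0.53, 0.088). That of S280A against WT was lost without S280A replicate 2 (0.45, 0.190), WT replicate 1 (0.44, 0.221) or WT replicate 2 (0.66, 0.0661), and with lane as a covariate (0.50, 0.115). Over all genes, S280A against WT had 6 calls without S280A replicate 2 and 7 without WT replicate 1, against 3226 with all libraries. Without YFP replicate 2, S280D against YFP passed at -0.51 (edgeR adjusted p = 0.0283).

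The ratio of Plin2 to Plin3 exon reads within a library, which needs no scaling between libraries, reached 1.55 and 1.51 in S280D libraries, 0.954 and 0.904 in S280A libraries, 1.6 and 1.45 in WT, against 0.951 and 1.27 in YFP. The S280D and WT libraries lay above all S280A and YFP libraries. This ratio was chosen after its values were seen and has no test.

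Plin4, a perilipin best known from fat and muscle, was low here, at 11 to 55 reads a library, with 1.33 and 2.32 CPM in S280D, 1.4 and 1.13 in S280A, 1.45 and 0.656 in WT, against 1.87 and 2.25 in YFP. It passed in no comparison, and its widest difference, WT against YFP, was -0.95 ± 0.47 with a 95% interval of -1.97 to 0.081 (edgeR adjusted p = 0.171). Neither perilipin of fat and oxidative tissue was within reach of a test: Plin1 had 24 reads and Plin5 had 4 reads over all 8 libraries.

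Of the genes for droplet formation, Fitm2 encodes an endoplasmic reticulum protein needed for droplets to bud. Its level was 12.9 and 12.1 CPM in S280D, 15.1 and 16.7 in S280A, 10.3 and 10.1 in WT, against 14.6 and 13.5 in YFP. The 4 groups did not overlap, with S280A above YFP, YFP above S280D and S280D above WT. One difference passed, S280A against WT, at 0.64 ± 0.16 (edgeR adjusted p = 0.0188), while WT against YFP was -0.46 ± 0.16 (adjusted p = 0.0657). The call was lost without S280A replicate 2 (0.60, edgeR adjusted p = 0.130), WT replicate 1 (0.66, 0.134) or WT replicate 2 (0.65, 0.0806), and with lane as a covariate (0.58, 0.0888), with folds near that of the full fit, and within lane 2 the difference was 0.57. With the exon length correction, Fitm2, at 4464 exon bases the longest of the 10 genes, passed in WT against YFP (-0.66, edgeR adjusted p = 0.0212) and in S280D against S280A (-0.66, adjusted p = 0.0106).

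Bscl2, the gene of seipin, which sits at the contact of the endoplasmic reticulum and the growing droplet, had 15.1 and 17.3 CPM in S280D, 20.9 and 24 in S280A, 15.1 and 20.6 in WT, against 24.2 and 23.5 in YFP. Both S280D libraries lay below all S280A and YFP libraries. S280D against YFP passed at -0.56 ± 0.18 (edgeR adjusted p = 0.0341), and S280D against S280A did not (-0.47 ± 0.18, adjusted p = 0.0561), though it did with the replicate block (adjusted p = 0.0489) and on unique exon reads (0.0417). The difference from YFP was -0.66 within lane 1. Leaving out any 1 of the 4 libraries compared ended the call: the fold was -0.44 without S280D replicate 1 (edgeR adjusted p = 0.257), -0.67 without S280D replicate 2 (0.0621), -0.54 without YFP replicate 1 (0.120) and -0.59 without YFP replicate 2 (0.0618). With lane as a covariate the fold was -0.56 and the adjusted p 0.113.

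Turning to lipolysis, Hilpda and Abhd5 encode regulators of adipose triglyceride lipase, the first an inhibitor induced by hypoxia and the other a co-activator. Hilpda had 3.05 and 4.64 CPM in S280D, 2.67 and 3.06 in S280A, 4.1 and 2.74 in WT, against 3.81 and 4.65 in YFP. Both S280A libraries lay below both YFP libraries and all other pairs of groups overlapped, and no comparison passed, with edgeR adjusted p from 0.331 to 0.961. G0s2, the other known inhibitor of this lipase, had 0 reads, which allows up to 0.0725 CPM in the deepest library and up to 0.242 CPM in the shallowest (3 reads, counting error only).

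Abhd5 had 41.6 and 34.4 CPM in S280D, 25.6 and 24.5 in S280A, 31.5 and 32.1 in WT, against 25.8 and 32.8 in YFP. Both S280D libraries lay above every other library and both S280A libraries below every other, by a small margin at the lower YFP library. The difference of S280D and S280A passed at 0.60 ± 0.16 (edgeR adjusted p = 0.0131), and was 0.76 within lane 1 and 0.42 within lane 2. It was 0.43 with the exon length correction (edgeR adjusted p = 0.0327), and the call was lost without S280D replicate 1 (0.47, adjusted p = 0.124) or S280A replicate 2 (0.56, 0.0894). S280D against YFP, at 0.37 ± 0.16, had an edgeR adjusted p of 0.0885, and of 0.0342 without YFP replicate 2.

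Among the lipases, Mgll, which encodes the monoacylglycerol lipase of the final step, showed the lowest adjusted p-value of the 10 genes. It had 19.6 and 25.5 CPM in S280D, 27.1 and 25.9 in S280A, 14.8 and 14.2 in WT, against 26.8 and 34.9 in YFP. Both WT libraries lay below all 6 others. Mgll was lower in WT than in YFP by a log2 fold change of -1.09 ± 0.18 (edgeR adjusted p = 0.00531), and higher in S280A than in WT by 0.87 ± 0.18 (adjusted p = 0.0109). Both calls rest on the same WT libraries. S280D against WT was 0.63 ± 0.18 with an unadjusted p of 0.00507 and an adjusted p of 0.623, in a comparison that called 5 of all genes. S280D against YFP was -0.46 ± 0.18 (edgeR adjusted p = 0.0674), and passed without S280D replicate 2 (0.0484), without YFP replicate 1 (0.0498) and on unique exon reads (0.0495). Within lane 2 the log2 difference was 0.90 for S280A and WT and 0.81 for S280D and WT. The WT and YFP difference no longer passed without WT replicate 1 (-1.12) or with lane as a covariate (-1.31, edgeR adjusted p = 0.0771). As no lane held both WT and YFP, that lane term was set by the S280D and S280A libraries alone. The part of lane in the WT and YFP difference could thus not be tested. The S280A and WT difference no longer passed without S280A replicate 2 (0.93, 0.0954) or WT replicate 1 (0.90, 0.0958).

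The ratio of Abhd5 to Mgll reads within a library was 2.12 and 1.35 in S280D, 0.946 and 0.944 in S280A, 2.12 and 2.26 in WT, against 0.963 and 0.94 in YFP. The S280D and WT libraries again lay above all S280A and YFP libraries, in the same split as the ratio of Plin2 to Plin3. Of 4 ratios computed, all chosen after values were seen and without a test, the other two did not split in this way. Abhd5 to the sum of Pnpla2 and LOC100911615, a feature that shares its reads, was 0.966 and 0.747 in S280D, 0.496 and 0.419 in S280A, 0.61 and 0.575 in WT, against 0.46 and 0.704 in YFP. Mgll to that sum was 0.454 and 0.554 in S280D, 0.524 and 0.444 in S280A, 0.288 and 0.255 in WT, against 0.478 and 0.748 in YFP. How CPM relative to the mean of all libraries ran with exon length split the libraries as Plin2 to Plin3 and Abhd5 to Mgll did. So did the summed fibroblast markers, though not each marker. Their part in the ratios was not tested.

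**Figure D3:**
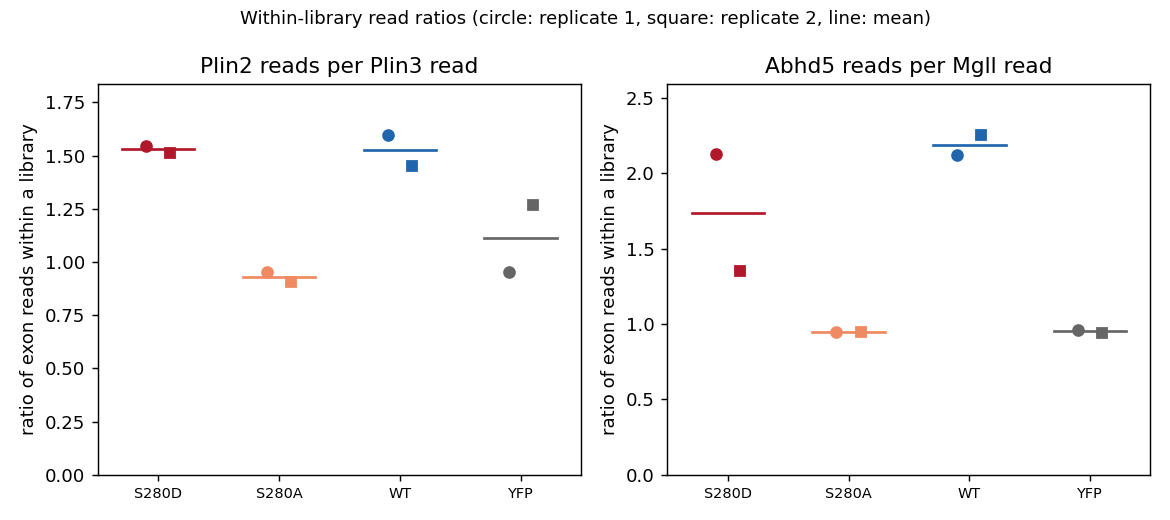
Ratios of exon reads within a library (y axis, linear from 0) for Plin2 to Plin3 and Abhd5 to Mgll, by construct, with circles for replicate 1, squares for replicate 2 and a line at the mean of 2 libraries. S280D and WT libraries lie above S280A and YFP libraries in both ratios.

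Lipe, the gene of hormone-sensitive lipase, had 1.06 and 1.32 CPM in S280D, 0.632 and 1.61 in S280A, 0.7 and 0.417 in WT, against 1.29 and 2.15 in YFP. These levels stand for 7 to 44 reads a library. The WT libraries lay below those of YFP (-1.60 ± 0.56, 95% interval -2.82 to -0.38, edgeR adjusted p = 0.0637). This difference passed without S280A replicate 1 (adjusted p = 0.0418) or S280A replicate 2 (0.0425), without a filter on low counts (0.0197), on unique exon reads (0.0355) and with the length correction (0.0391).

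Pnpla2 encodes adipose triglyceride lipase, which opens the breakdown of stored triacylglycerol. Its feature, at chr1:213997708-214002815 in Rnor_6.0, had 21.6 and 23.1 CPM in S280D, 40.9 and 30 in S280A, 38.2 and 38.6 in WT, against 26.5 and 24 in YFP. The S280A and WT libraries lay above all S280D and YFP libraries. As counted, Pnpla2 was higher in WT than in YFP (0.60 ± 0.16, edgeR adjusted p = 0.0266) and lower in S280D than in S280A (-0.67 ± 0.16, adjusted p = 0.00931). S280D against WT was -0.78 ± 0.16, which did not pass (adjusted p = 0.216) but did on only the 4 libraries compared (0.0325), without a filter on low counts (0.00228) and with DESeq2. S280A against YFP was 0.49 ± 0.16 (edgeR adjusted p = 0.361). Within lanes, the log2 difference of S280D and S280A was -0.47 in lane 1 and -0.83 in lane 2.

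These Pnpla2 values need the reads of a second feature beside them. Of the 4690 exon reads of Pnpla2, 6 were unique (0.128%), while at least 94.7% were unique at each of the other 9 genes. Among all tested genes, 550 (4.43%) had fewer than 10% unique exon reads. A feature named LOC100911615 lies on the same chromosome at chr1:214434625-214439720, with 2243 exon bases against 2255 for Pnpla2, and had 3405 exon reads, of which 0 were unique. The features next to each also correspond, with Rplp2 and LOC100911575 both at 348 exon bases and a copy of Cracr2b beyond each. The share of Pnpla2 in the reads of the pair was 50.2% and 50.1% in S280D, 79.2% and 51.2% in S280A, 74% and 69.2% in WT, against 47.2% and 51.4% in YFP. The share was thus far from even in 3 libraries, S280A replicate 1 and both WT libraries. These came from lane 2, as did S280D replicate 2, whose share was 50.1%.

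Summed over both features, the level was 43 and 46 CPM in S280D, 51.7 and 58.5 in S280A, 51.6 and 55.8 in WT, against 56.2 and 46.7 in YFP. The sum, an alternative chosen after the data were seen, passed in no comparison. WT against YFP was 0.063 ± 0.13 (edgeR adjusted p = 0.766), S280D against S280A was -0.31 ± 0.13 (0.0901), and S280D against WT was -0.27 ± 0.13 (0.947). The sources used here do not state how reads with several matches were assigned, and the 2 calls of Pnpla2 are uncertain. On Pnpla2 alone, WT against YFP was also lost without WT replicate 1 (0.61, edgeR adjusted p = 0.156), WT replicate 2 (0.59, 0.112), YFP replicate 1 (0.67, 0.0706) or YFP replicate 2 (0.53, 0.0845) and with lane as a covariate (0.33, 0.487). S280D against S280A was lost without S280D replicate 1 (-0.61, edgeR adjusted p = 0.0875) or S280A replicate 1 (-0.42, 0.0615). The genes most like Pnpla2 as counted over the 8 libraries were Slco3a1 (Pearson r = 0.945), Rnaset2 (0.936) and Aurkb (0.915), of the same 8536 genes.

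**Figure D4:**
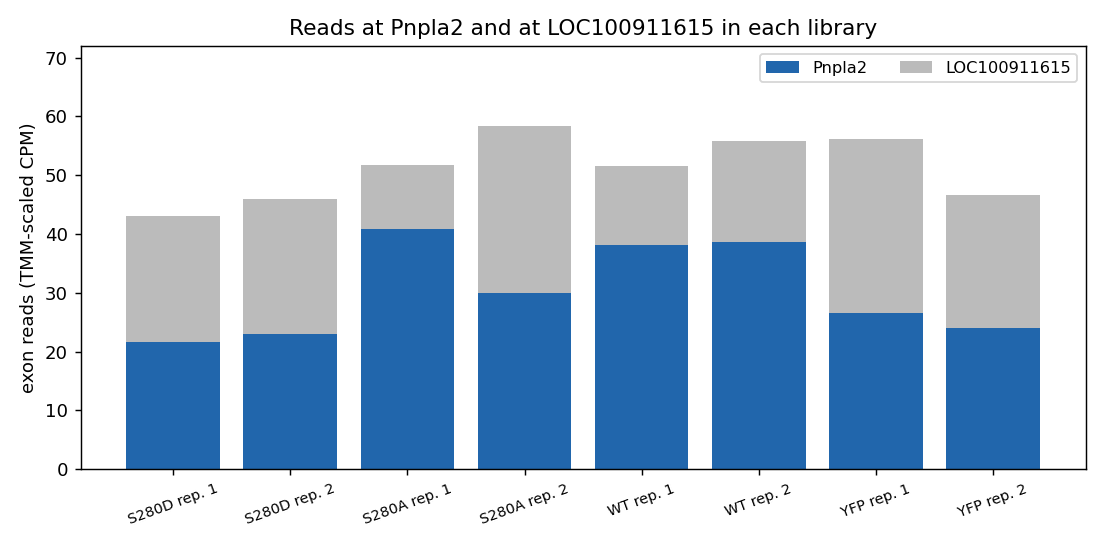
Exon reads at Pnpla2 and at LOC100911615 (y axis, TMM-scaled CPM, linear from 0) in each of the 8 libraries, with S280D at the left and YFP at the right. The sum of both runs from 43 to 58.5 CPM, while the share of Pnpla2 is 79.2% in S280A replicate 1, 74% and 69.2% in WT, and 47.2% to 51.4% in the other 5 libraries.

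Intron reads, which come largely from unspliced RNA, gave a second measure of the same libraries. They made up 14.4% and 15.1% of gene reads in S280D, 14.2% and 15.8% in S280A, 14.4% and 14.5% in WT, against 11% and 11.9% in YFP, so YFP was lowest throughout. Intron CPM and the intron test were scaled to each library's intron reads, not to its exon reads. The size of intron differences from YFP, and how near they come to exon differences, depends on this scaling. Unscaled, Mgll had 75 and 47 intron reads in WT and 72 and 144 in YFP. Its exon reads were 297 and 239 in WT and 458 and 684 in YFP. Mgll had 33 and 33.6 intron CPM in S280D, 36.1 and 38.7 in S280A, 21.9 and 16.5 in WT, against 34.3 and 48.5 in YFP. Its intron reads were lower in WT than in YFP by -1.11 ± 0.26 (edgeR adjusted p = 0.0417 over 12988 genes, of which 1.37% were called lower), against -1.09 for exon reads. Plin2 had 82.9 and 91.5 intron CPM in S280D, 86.1 and 112 in S280A, 99.9 and 81.4 in WT, against 147.7 and 118.6 in YFP. Its introns thus lay below YFP in all 6 libraries with a PPARalpha construct while its exons lay above, though neither passed (introns of WT against YFP -0.55 ± 0.22, edgeR adjusted p = 0.212). The difference between the 2 measures was not tested. Abhd5 had 9.46 and 7.75 intron CPM in S280D, 5.41 and 7.63 in S280A, 11.4 and 10.5 in WT, against 2.38 and 5.39 in YFP, from 5 to 76 reads a library, and WT against YFP was 1.43 ± 0.46 (adjusted p = 0.125). Of the 10 genes 7 had enough intron reads to be tested, all but Plin4, Fitm2 and Hilpda, and no other value of the 7 passed, Plin3 among them with -0.020 ± 0.43 for S280D against S280A (adjusted p = 0.983).

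**Figure D5:**
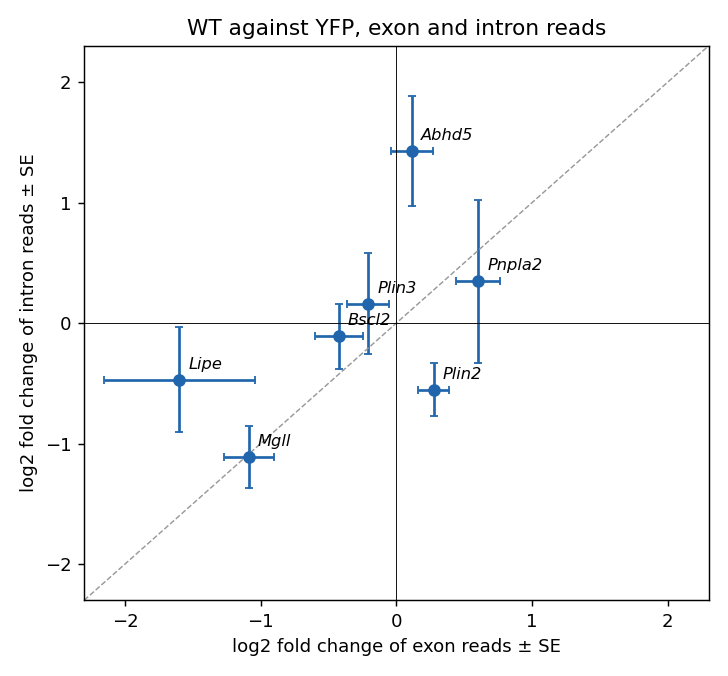
Log2 fold changes of WT against YFP on exon reads (x axis) and intron reads (y axis), bars ± SE, for the members with intron reads tested, 2 libraries a group. Exon and intron reads are each scaled to their own library totals. Mgll falls near the same value on both axes (-1.09 and -1.11), and Plin2 has opposite signs (0.28 and -0.55).

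Other lipid droplet proteins and regulators, not all of them on the droplet surface, were taken from a list of 28 genes, of which 20 were tested. In S280D against S280A 6 of the 20 were higher and 1 lower, beside 21.3% and 18% of all tested genes. In S280A against WT 1 was higher and 5 lower (10.1% and 15.9% of all). In S280D against YFP 4 were higher and none lower (17.1% and 13.7%). In WT against YFP 2 were higher and none lower (12.2% and 7.45%), and none passed in the other 2 comparisons. At an unadjusted p under 0.05 these 2 counts were 4 of 20 in S280A against YFP and 1 of 20 in S280D against WT, beside 11.6% and 4.88% of all tested genes. The list's medians lay between -0.10 and 0.076 (log2), against -0.022 to 0.013 over all genes. Vps13a, which encodes a bridge-like lipid transfer protein at organelle contacts, had 71.5 and 48.6 CPM in S280D, 22 and 16.4 in S280A, 50.2 and 42.2 in WT, against 11 and 11.2 in YFP. It was higher in S280D than in YFP by 2.44 ± 0.21 (edgeR adjusted p = 0.000423) and than in S280A by 1.64 ± 0.20 (0.00159). Mospd2, an endoplasmic reticulum tether, was higher in S280D than in S280A by 1.97 (edgeR adjusted p = 0.00167), Vps13c by 1.16 (0.00411), Rab18, a GTPase on droplets, by 1.07 (0.00403), and Spast, a microtubule-severing enzyme, by 0.63 (0.00952). Aup1, which recruits ubiquitin enzymes to droplets, was lower by -0.88 (0.00395). The 8 genes not tested included Cidea, Cideb and Cidec, which fuse droplets, with 7, 40 and 6 reads.

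Of 33 genes for neutral lipid synthesis and other lipid hydrolases, 30 were in the table and 24 were tested. In WT against YFP 1 was higher and 2 lower, beside 12.2% and 7.45% of all tested genes. In S280D against YFP 1 was higher and 4 lower (17.1% and 13.7% of all). In S280A against WT 4 were higher and 2 lower (10.1% and 15.9%). In S280D against S280A 1 was higher and 4 lower (21.3% and 18%), and none passed in the other 2 comparisons. The 2 counts at an unadjusted p under 0.05 were 2 of 24 in S280A against YFP and 1 of 24 in S280D against WT, beside the same 11.6% and 4.88% of all genes. Medians lay between -0.11 and 0.074. Pnpla8, a phospholipase of mitochondria and peroxisomes, had 18.8 and 14.2 CPM in S280D, 4 and 4.83 in S280A, 14.9 and 9.77 in WT, against 3.86 and 6.08 in YFP, and was higher in S280D than in S280A by 1.91 ± 0.28 (edgeR adjusted p = 0.00185). Agpat1, an acyltransferase of phosphatidic acid synthesis, had 26.9 and 31.6 CPM in S280D, 45.4 and 49.8 in S280A, 18.5 and 20.9 in WT, against 42.3 and 47.4 in YFP. It was lower in WT than in YFP by -1.19 ± 0.15 (edgeR adjusted p = 0.0023), but only 16.9% of its reads were unique and its value is uncertain. Its relative Agpat3 was also lower in WT than in YFP (-0.45, edgeR adjusted p = 0.0329), while Agpat2 did not pass there (-0.69, 0.0731). Agpat2 was lower in S280D than in YFP (-0.87, edgeR adjusted p = 0.0229), where Agpat3 did not pass (-0.31, 0.0827). Pnpla6, a lysophospholipase, was lower in S280D than in YFP (-0.52, edgeR adjusted p = 0.0328), and Nceh1, a cholesterol ester hydrolase, lower in S280A than in WT (-0.58, 0.0207).

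Of 24 PPAR targets outside the droplet, 23 were in the table and 19 were tested. In S280D against YFP 9 were higher and 1 lower (17.1% and 13.7% of all tested genes), with a median of 0.47. In WT against YFP 4 were higher and none lower (12.2% and 7.45%, median 0.30), and in S280A against YFP none passed (median 0.25). In S280A against WT 2 were higher and none lower (10.1% and 15.9%, median 0.13). In S280D against S280A 6 were higher and 1 lower (21.3% and 18%, median 0.14), and in S280D against WT none passed (median 0.29). Each of the 2 comparisons with no call had 7 of 19 genes at an unadjusted p under 0.05, beside 11.6% of all tested genes in S280A against YFP and 4.88% in S280D against WT. Of the genes in this list, Hsdl2, a peroxisomal dehydrogenase-like protein, was higher in S280D than in YFP by 1.20 (edgeR adjusted p = 0.00111), Cpt1b, the muscle form of the enzyme for mitochondrial fatty acid entry, by 1.08 (0.00427), the acyl-CoA thioesterase gene Acot2 by 0.71 (0.00311, with 45.5% of its reads unique) and the acyl-CoA dehydrogenase gene Acadl by 0.58 (0.00716). Pdk4 had 14 reads in all and was not tested.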

How the data were processed

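Poly(A) RNA was sequenced as strand-specific paired-end libraries, per the labels' protocols. The deposited file is 1 table of raw counts of total exon, unique exon and total intron reads per gene, per the file headers, on Rnor_6.0 per the submitters' processing notes. The sources used here do not state aligner, annotation or strand setting. The main test was edgeR 4.0.16 (R 4.3.3) on total exon reads: filterByExpr, TMM, quasi-likelihood fit to all 8 libraries with 1 coefficient per group, two-sided, Benjamini-Hochberg adjusted over 12407 genes at 0.05. The smallest library held 14018785 exon reads. Intervals cover 95% and, like read floors, counting and library spread only, since amplified reads lack molecular identifiers and can be copies of 1 molecule. Alternatives were DESeq2 1.42.0, RLE factors, 2 other low-count filters, the 4 libraries compared, a replicate block, a 1.5-fold threshold, a lane term, unique exon reads, a loess offset on exon length, intron reads, each library left out (a lone library is then assumed to vary like the others), and, after seeing the data, Pnpla2 summed with LOC100911615. Within-lane differences used log2(CPM) with 0.5 reads added. The script was tested on simulated data. All 10 genes are named, as are up to 6 genes per list with the smallest adjusted p and the 3 most alike genes by Pearson correlation for Plin2 and Pnpla2. 1 gene that this rule names is not reported here. Members and lists were chosen with earlier results of these data known. The second WT library is titled 2 and numbered otherwise in its description.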

Additional observations from a re-analysis of the deposited data

How the results depend on the processing

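The 9 calls described above kept their direction under every alternative in which the gene was tested, with 1 exception. This was Plin3 in S280A against WT, which was -0.21 on intron reads (edgeR adjusted p = 0.861, against 0.53 on exon reads). Pnpla2 was not tested on unique exon reads, nor Fitm2 on intron reads. With a 1.5-fold threshold no member passed in any comparison. Counts over all genes are given in brackets. The number of members called in S280A against WT was 3 (3226), and became 0 at 1.5-fold (20), 1 with the lane term (993), 0 on intron reads (1) and 0 to 3 with 1 library left out (6 to 3859). In S280D against S280A it was 3 (4873), and became 0 at 1.5-fold (733), 0 on intron reads (590), 4 with the length offset (5331), 2 with Pnpla2 summed with LOC100911615 (4874) and 0 to 3 with 1 library left out (1254 to 5223). In S280D against YFP it was 1 (3815), and became 0 at 1.5-fold (566), 0 with the lane term (1654), 2 on unique exon reads (3934), 0 on intron reads (695) and 0 to 2 with 1 library left out (917 to 4152). In WT against YFP it was 2 (2437), and became 0 at 1.5-fold (135), 0 with the lane term (9), 3 without a filter on low counts (3087), 4 with the length offset (2999), 1 on intron reads (263), 1 with Pnpla2 summed with LOC100911615 (2437) and 0 to 3 with 1 library left out (163 to 2917). In S280D against WT it was 0, and became 1 (Pnpla2) without a filter on low counts (129), with DESeq2 (38) and on only the 4 libraries compared (33), against 5 of all genes in the full fit, and was 0 with any 1 library left out. It stayed 0 in S280A against YFP under every alternative. On unique exon reads the count stayed 2 in WT against YFP (2641), with Lipe in place of Pnpla2. It stayed 3 in S280D against S280A (4920), with Bscl2 in place of Pnpla2. The cause of these changes was not tested. Where 1 library was left out, fewer libraries in the fit and the loss of that library cannot be told apart. With the replicate block the counts of members were 3 in S280A against WT, 4 in S280D against S280A, 1 in S280D against YFP, 2 in WT against YFP and 0 in the other 2. Deviations of same-numbered libraries correlated at 0.205 for S280D and S280A, 0.144 for S280D and WT and 0.118 for S280A and WT, and at -0.144, -0.173 and -0.0916 for S280D, S280A and WT with YFP. The labels give no basis for pairing, and the libraries were treated as sharing only a number. Among the 51 uncalled values, 17 of 999 refits passed and 33 changed sign without passing. Genes such as Lipe and Plin4 rest on few reads a library, and differences of the size seen elsewhere could not be resolved there.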
